A study of Homo sapiens with 6 samples.

Results

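The genes that modify, fold, export and cross-link procollagen were compared between L3.6pl cells with high and with low surface L1CAM. The list held 44 genes taken from general knowledge of collagen synthesis and placed by function in 8 steps. No measured value is part of the rule, but the list was written with earlier results of these data known. The count table of 19469 genes held 42 of them, and ADAMTS2 and LOXL4 were not analysed here. In L1low cells 5 of the 42 were higher: the lysyl oxidase LOXL2 by 1.66-fold, and the prolyl hydroxylases P4HA1 and P3H2, the lysyl hydroxylase PLOD1 and the collagen chaperone SERPINH1 by 1.24- to 1.32-fold. None was called lower, and no gene of the general endoplasmic reticulum (ER) folding apparatus or of vesicle export was called. Over all genes 4.58% were called higher and 3.37% lower, so no call among so few genes is near those shares.

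L3.6pl is an established human pancreatic ductal adenocarcinoma line of metastatic, adenosquamous origin (one label field spells it L6.6pl, the sample titles L3.6PL). Untreated cells grown in DMEM with 10% serum were stained for L1CAM, an adhesion molecule of the immunoglobulin superfamily, and sorted by FACS. The L1CAM_POSITIVE population is called L1high here and the L1CAM_NEGATIVE population L1low. Each population gave 3 RNA-seq libraries, all from this one line. The study's methods speak in general terms of independent repeats with triplicate samples, but nothing ties the libraries to separate cultures or sorts, so the p-values measure only the spread between these libraries, which may be technical.

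Collagen chains enter the ER as procollagen, where prolyl and lysyl hydroxylases modify them before the triple helix closes, and hydroxyproline stabilises that helix. The chaperone SERPINH1 (HSP47) binds the folded helix, and TANGO1 loads this large cargo into COPII-coated carriers. Outside the cell, proteases cut off the propeptides and lysyl oxidases cross-link the fibrils. Epithelial cells use the same enzymes for the collagens of their basement membrane.

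Total counts ran from 16334610 to 21064685 per library. Levels are given in CPM, which are read counts scaled to a common library total with TMM factors, always in the order of replicates 1, 2 and 3. Calls rest on the quasi-likelihood test of edgeR at a 0.05 limit on the adjusted p (Benjamini-Hochberg, over 19467 genes), and every log2 fold change is L1low minus L1high. The sorting marker L1CAM stood at 84.0, 69.8 and 89.5 CPM in L1high cells and between 17.7 and 23.7 in L1low cells (log2 fold change -1.99, standard error (SE) 0.12, adjusted p = 4.69e-06), which checks the labels. The labelled epithelial identity was checked with KRT7, at 1537 to 1897 CPM in the 6 libraries, and all 6 ductal epithelial markers looked for were in the table.

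Of the 42 genes, 5 (11.9%) were called higher in L1low cells, against 4.58% of all genes tested. None was called lower, against 3.37% of all genes. The list was chosen with earlier results of these data known, so such shares are descriptions with no test. DESeq2 also called none lower, and of 12 members (28.6%, against 23.3% of all genes) with an unadjusted p under 0.05 in edgeR, 1 was lower (MIA2). Over the 5 libraries that the study's own comparison used, which leave out L1high replicate 3, the same test again called 5 members higher and 0 lower, against 4.41% of all genes called higher. The L1low libraries all lay above the L1high libraries in 10 members (23.8%, against 15.2% of all genes) and all below in 3 (7.14%, against 13.7%). The median log2 fold change of the 42 genes was 0.07 and that of all genes -0.01, with 28 of the 42 above 0.

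The number called depended on single libraries. Without L1high replicate 1, and likewise without L1low replicate 2, LOXL2 was the one member still called. With the replicate number as a block 7 members were called, the added ones being P4HA2 and LOX, and with DESeq2 6 were called, the added one being LOX.

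**Figure D1:**
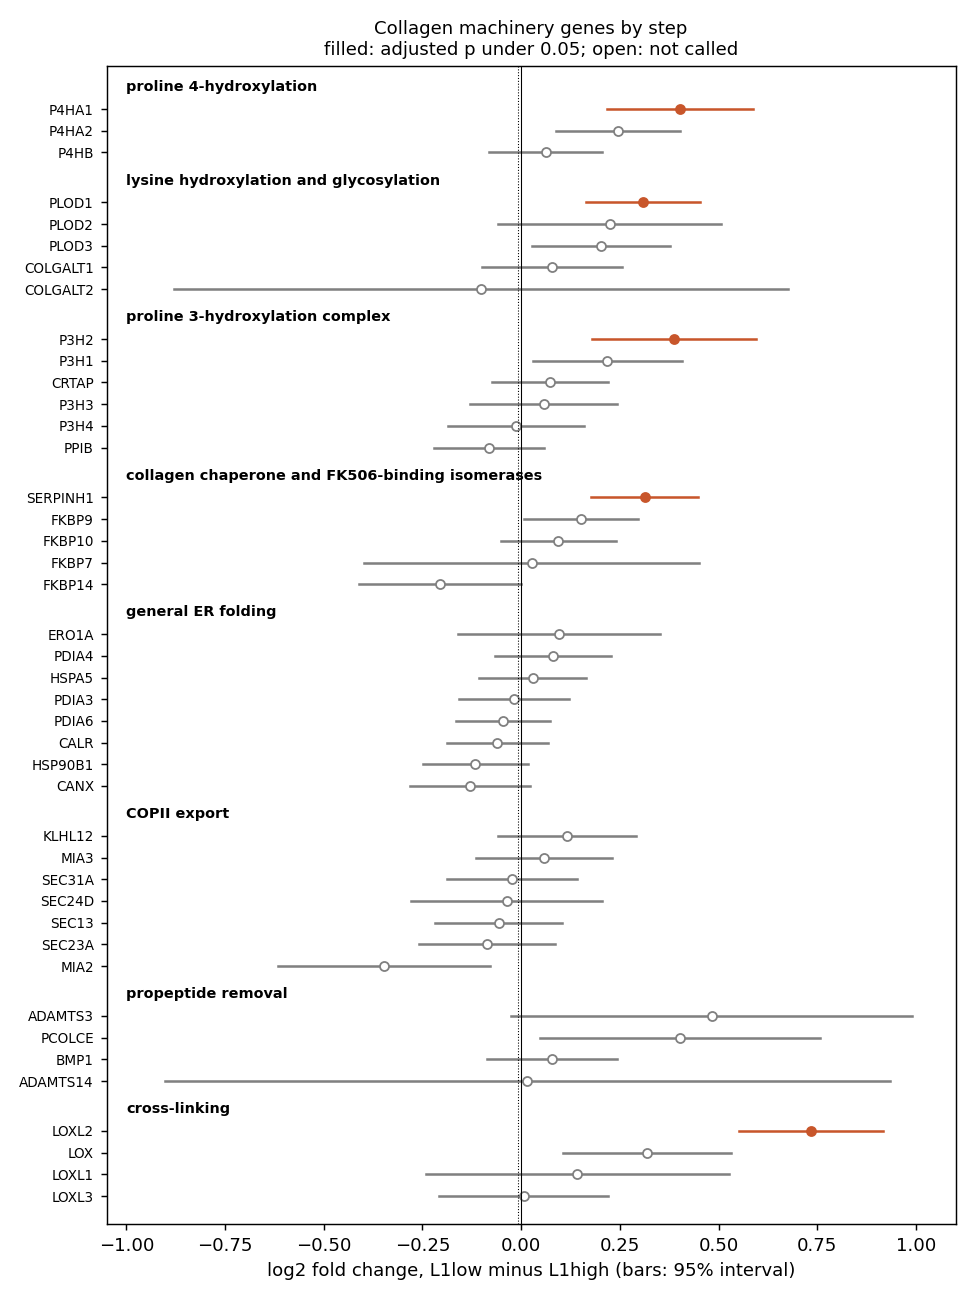
Log2 fold change (L1low minus L1high, x axis) of each of the 42 genes, grouped by step of collagen synthesis, with the 95% interval as a bar and filled points for the 5 genes called. The called genes lie between 0.31 and 0.73, while the 8 general ER folding genes have intervals that cross 0 within -0.28 and 0.35. The dotted line is the median of all genes.

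Proline 4-hydroxylation, which makes the hydroxyproline of the helix, is done by a tetramer of P4HA catalytic chains and P4HB, the protein disulfide isomerase that holds them in solution. P4HA1 (ENSG00000122884, chromosome 10 from 73007217 to 73096974, GRCh38) stood at 117, 136 and 114 CPM in L1high cells and at 172, 163 and 150 in L1low cells. The groups did not overlap, and the closest libraries were L1high replicate 2 and L1low replicate 3. P4HA1 rose by a log2 fold change of 0.40 (SE 0.08, adjusted p = 0.0131). P4HA2, the second catalytic chain, stood at 61.8, 61.0 and 65.8 CPM in L1high and at 71.9, 78.3 and 73.3 in L1low cells. Its groups did not overlap either, but it was not called (log2 fold change 0.25, adjusted p = 0.0619). P4HB had the highest level per length, at 78.5 CPM per kb of exon in L1high cells against 39.6 for P4HA1 and 6.21 for P4HA2. It stood at 879, 809 and 932 CPM in L1high and 881, 920 and 934 in L1low cells, and its groups overlapped (log2 fold change 0.06, 95% interval -0.08 to 0.21). P4HA1 made up 86.4% ± 1.52 of the P4HA1 and P4HA2 level per kb of exon in L1high and 87.6% ± 0.917 in L1low cells (SD, n = 3). This share overlapped between groups, at 85.0% to 88.0% in L1high and 87.0% to 88.7% in L1low libraries. The exact permutation test of the log2 ratio of P4HA1 to P4HA2 gave p = 0.3 (two-sided). Exon length counts every annotated exon of a gene once, which gives 10128 bases for P4HA2 and 3093 for P4HA1. Levels and shares per kb therefore depend on the annotation, and the CPM of P4HA1 and P4HA2 lie closer together.

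P4HA1 and the other called genes were also read at the sequence level, since many genes of this machinery are known targets of hypoxia-inducible factors, which bind a core of ACGTG or GCGTG. RefSeq start sites (GRCh38.p14) were found for 35 of the 44 genes, and the 250 bases before each start were searched on both strands for these 5 letters. At least 1 match was present in 26 of the 35 genes (74.3%), against 47.4% of 27305 genes in the same table. The 4 called genes with an entry, P4HA1, PLOD1, P3H2 and SERPINH1, all had one, and LOXL2 had no entry. Most of the uncalled genes with an entry had one too, so a match does not set the called genes apart. The 27305 genes were not matched to the list for base composition. A match describes these letters and does not show a bound site. The P4HA1 match began 86 bases before the RefSeq start, on the minus strand at chr10:73096935-73096964, which GENCODE places in an exon of a longer P4HA1 transcript. Its core reads in reverse, as CACGT in capitals.

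P4HA1: tgtgatcgagctCACGTagcgagggctgca

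Lysine hydroxylation and glycosylation prepare the residues that later form cross-links and carry the collagen sugars. PLOD1, the lysyl hydroxylase of the helical region (ENSG00000083444, chromosome 1 from 11934205 to 11975538), stood at 187, 172 and 191 CPM in L1high cells and at 220, 233 and 228 in L1low cells. Every L1low library lay above every L1high library. PLOD1 rose by a log2 fold change of 0.31 (SE 0.07, adjusted p = 0.0144). PLOD2, the telopeptide lysyl hydroxylase, varied within each population, with 136, 153 and 116 CPM in L1high and 183, 164 and 127 in L1low cells. The groups overlapped, the log2 fold change was 0.22 with a 95% interval of -0.06 to 0.51, and it was not called. PLOD3, which also carries glycosyltransferase activity, stood at 83.7, 74.0 and 89.8 CPM against 96.9, 93.2 and 94.6, without overlap and without a call (log2 fold change 0.20, adjusted p = 0.151). The galactosyltransferase COLGALT1 overlapped between groups at 127 to 154 CPM in L1high and 142 to 155 in L1low cells. Its relative COLGALT2 was near 1 CPM throughout, where the 95% interval of its log2 fold change ran from -0.88 to 0.68, so that no difference of moderate size was detectable at this depth. PLOD1 held 59.1% ± 1.23 of the lysyl hydroxylase level per kb in L1high cells and 60.8% ± 2.28 in L1low cells. That share rests on annotated exon lengths of 5320 bases for PLOD1 and 14518 for PLOD2. None of the 3 ratios between PLOD genes separated the groups (exact permutation p between 0.2 and 1, two-sided).

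PLOD1 had 2 matches to the searched letters, both GCGTG on the plus strand. The first window lay at chr1:11934637-11934666, outside any GENCODE exon of PLOD1. The second lay at chr1:11934680-11934709, with 16 of its 30 bases in an exon of a PLOD1 transcript of GENCODE.

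PLOD1 first match: gcgcgggggaggGCGTGgaggggcggggtg
PLOD1 second match: ggcgggcccagtGCGTGgcagcgggacctg

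Proline 3-hydroxylation is a rarer modification, made by P3H1 in a complex with CRTAP and the cyclophilin PPIB, while P3H2 acts mainly on collagen IV of basement membranes. P3H2 (ENSG00000090530, chromosome 3 from 189956728 to 190122437) stood at 20.7, 23.6 and 24.1 CPM in L1high cells and at 29.4, 28.4 and 31.4 in L1low cells. The groups did not overlap, and P3H2 rose by a log2 fold change of 0.39 (SE 0.09, adjusted p = 0.029). P3H1 stood at 40.2, 37.6 and 43.9 CPM in L1high and 44.7, 46.8 and 49.9 in L1low cells. Its groups also did not overlap, by a narrow margin between L1high replicate 3 and L1low replicate 1, and it was not called (log2 fold change 0.22, adjusted p = 0.153). The partners of P3H1 moved little: CRTAP had a log2 fold change of 0.07 (138 to 143 CPM in L1high, 143 to 159 in L1low cells), and PPIB one of -0.08 (618 to 650 and 557 to 625 CPM). P3H3 (0.06) and P3H4 (-0.01), which form an ER complex with PLOD1, were not called, and both overlapped between groups. Within the family, P3H2 made up 23.7% ± 1.62 of the level per kb in L1high and 27.0% ± 1.35 in L1low cells, while P3H3 made up 41.5% ± 1.12 and 37.7% ± 2.29. The log2 ratio of P3H2 to P3H3 was higher in all 3 L1low libraries than in any L1high library, by 0.32 on average. Its exact permutation p of 0.1 (two-sided) is the smallest that 3 against 3 libraries allow, and 0.26 after Benjamini-Hochberg adjustment over the 13 pairs of relatives compared in the P4HA, PLOD, P3H and LOX families.

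P3H2 has 2 RefSeq starts. The window before the upstream start (chr3:190122499-190122528) held GCGTG, and the windows before the downstream start (chr3:190121075-190121104 and chr3:190120932-190120961) held CACGTG, which is ACGTG on both strands, and GCGTG. All 3 lie on the minus strand and outside GENCODE exons of P3H2.

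P3H2 upstream start: actagatacatGCGTGagtctttttcccat
P3H2 downstream start, first window: cagaagggagctCACGTGtaaagcgcctcg
P3H2 downstream start, second window: gcagcaggaggaGCGTGtgagctgtgggcg

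The collagen chaperone and the FK506-binding isomerases act on the chains as they fold. SERPINH1 (ENSG00000149257, chromosome 11 from 75562056 to 75572783), which binds the triple helix and is needed for its export, stood at 269, 262 and 273 CPM in L1high cells and at 318, 350 and 331 in L1low cells. All L1low libraries lay above all L1high libraries. SERPINH1 rose by a log2 fold change of 0.31 (SE 0.06, adjusted p = 0.00977). FKBP9 stood at 68.3, 70.4 and 69.9 CPM against 76.6, 76.2 and 79.1, again without overlap but with a log2 fold change of 0.15 that was not called (adjusted p = 0.192). FKBP10, at 46.6 CPM per kb the highest of these isomerases in L1high cells and a partner of lysyl hydroxylation, overlapped between groups (184 to 206 CPM and 204 to 217, log2 fold change 0.09). FKBP7 was at 2.94 to 4.12 CPM in the 6 libraries, with a 95% interval of -0.40 to 0.45. FKBP14 went the other way, at 35.5, 39.5 and 34.6 CPM in L1high and 33.6, 32.7 and 28.9 in L1low cells. It was 1 of the 3 members with all L1low libraries below, and was not called (log2 fold change -0.20, adjusted p = 0.216).

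Of the 2 RefSeq starts of SERPINH1, 1 had matches: an ACGTG in reverse at chr11:75562277-75562306 and a pair of overlapping GCGTG at chr11:75562330-75562359. Both windows are on the plus strand and lie in an exon of a SERPINH1 transcript of GENCODE.

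SERPINH1 first window: gagagcgagagtCACGTcccggcgctagcc
SERPINH1 second window: ggagacgcctGCGTGCGTGcggcccggggg

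**Figure D2:**
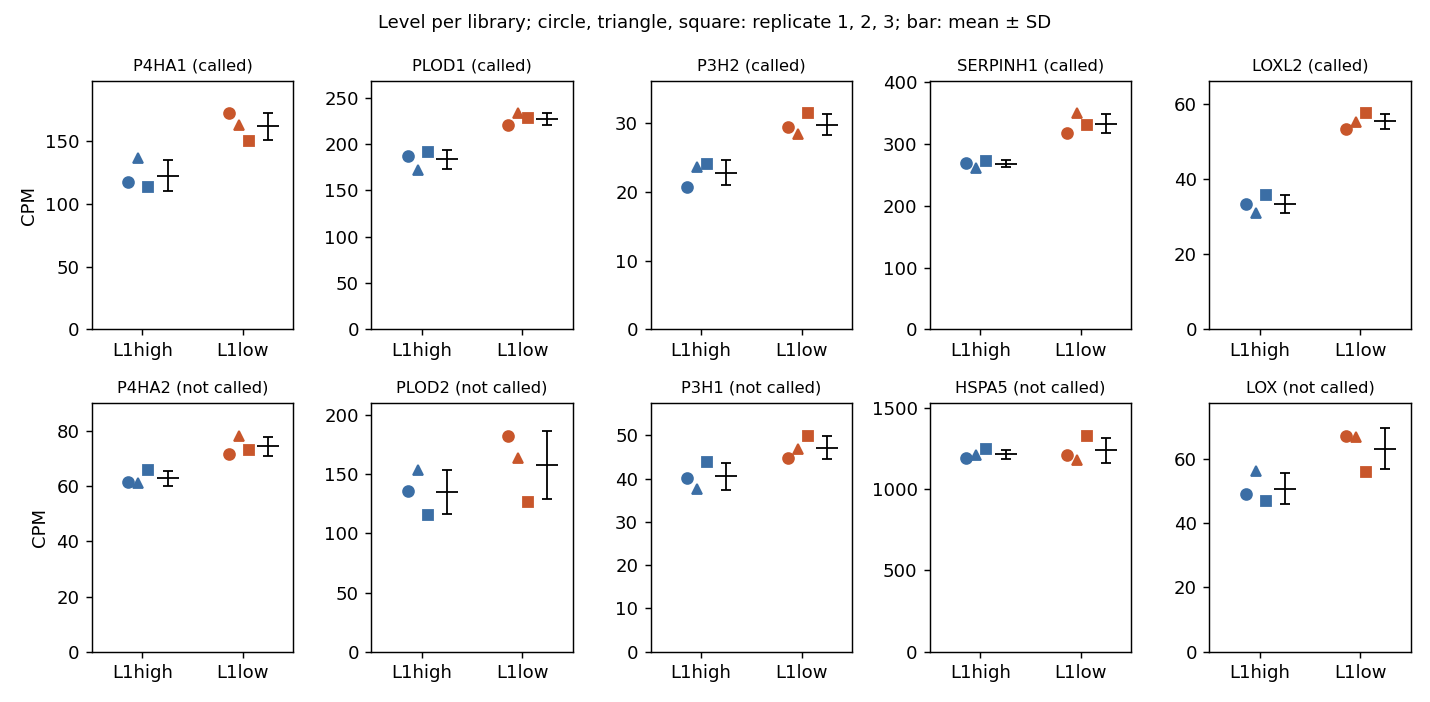
CPM (y axis, from 0) of 10 genes in each L1high (blue) and L1low (orange) library, with replicates 1, 2 and 3 as circle, triangle and square and the mean ± SD beside them. The 5 called genes in the top row have no overlap between groups. In the bottom row P4HA2 and P3H1 do not overlap, and PLOD2, HSPA5 and LOX do.

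The general ER folding genes serve all secreted proteins, and their 8 members carried 55.9% of the summed CPM of the 42 genes in L1high cells. None was called in either direction. For 8 genes this is near the shares of all genes called, 4.58% higher and 3.37% lower. None had an unadjusted p under 0.05 in edgeR, against 23.3% of all genes. HSPA5 (BiP), the main Hsp70 of the ER, stood at 1188, 1207 and 1244 CPM in L1high and at 1208, 1178 and 1327 in L1low cells. These groups overlapped, with a log2 fold change of 0.03 and a 95% interval of -0.11 to 0.17. HSP90B1 (GRP94) stood at 883, 921 and 921 CPM in L1high and at 874, 791 and 850 in L1low cells, all below, and was not called (log2 fold change -0.12, adjusted p = 0.277). The lectin chaperones CALR (-0.06) and CANX (-0.13), and the disulfide isomerases PDIA3 (-0.02), PDIA4 (0.08) and PDIA6 (-0.05), lay within 0.13 of 0 on the log2 scale. ERO1A, the oxidase that recharges disulfide isomerases and a known hypoxia target, stood at 168, 188 and 141 CPM against 203, 176 and 152 (log2 fold change 0.10, adjusted p = 0.669). The summed level of the step was 4676 ± 54.8 CPM in L1high and 4541 ± 91.2 in L1low cells (SD, n = 3), a ratio of 0.971. A processed copy of PDIA3, PDIA3P1, held 84949 counts in the 6 libraries against 29463 on PDIA3, and added together they gave no call of PDIA3.

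Genes of this step are textbook targets of the ATF6 branch of the unfolded protein response, whose element pairs CCAAT with CCACG across 9 bases. That pair, on either strand, was present in the 250 bases before a start in 5 of the 35 genes with an entry, and all 5 belong to the 7 searched genes of ER folding (HSPA5, HSP90B1, CALR, CANX and PDIA6). Of all 27305 genes 25 had it (0.0916%). In HSPA5, HSP90B1 and CALR there were 4 such pairs, of which 3 overlap an ACGTG or GCGTG on the same or the opposite strand. The HSPA5 window is at chr9:125241385-125241414 on the minus strand. The HSP90B1 windows are at chr12:103930211-103930240 and chr12:103930316-103930345 and the CALR window is at chr19:12938379-12938408, all on the plus strand. The HSP90B1 windows lie in exons of longer HSP90B1 transcripts, and the HSPA5 and CALR windows lie outside exons of those genes. The capitals mark the paired elements, read as CGTGG and ATTGG where the pair is on the opposite strand. No gene of the list that had this pair was called in the present comparison. With 5 such genes, this is near the shares of all genes called, 4.58% higher and 3.37% lower.

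HSPA5: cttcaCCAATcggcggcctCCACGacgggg
HSP90B1 first pair: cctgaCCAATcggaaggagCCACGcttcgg
HSP90B1 second pair: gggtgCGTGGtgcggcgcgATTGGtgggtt
CALR: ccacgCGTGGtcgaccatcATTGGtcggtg

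Export of procollagen needs COPII coats large enough for its rod, and none of the 7 export genes was called. For 7 genes this is near the shares of all genes called, 4.58% higher and 3.37% lower. MIA3 (TANGO1), the receptor that couples procollagen to the coat, stood at 94.6, 90.9 and 81.6 CPM in L1high and at 94.8, 96.7 and 86.6 in L1low cells, which overlap (log2 fold change 0.06). Its partner MIA2 had the lowest log2 fold change of the 42 genes, -0.35 (SE 0.12, unadjusted p = 0.016 and adjusted p = 0.115 in edgeR). MIA2 stood at 19.7, 22.2 and 17.4 CPM in L1high and at 17.4, 13.9 and 15.4 in L1low cells, with L1high replicate 3 and L1low replicate 1 next to each other. The coat genes SEC23A (-0.09), SEC24D (-0.04), SEC13 (-0.06) and SEC31A (-0.02) and the ubiquitin ligase adaptor KLHL12 (0.12), which enlarges the carriers, had log2 fold changes within 0.12 of 0 and overlapping groups. The summed level of the step was 407 ± 13.6 CPM in L1high and 403 ± 10.7 in L1low cells, and the sign of its median log2 fold change (-0.04) turned to 0.03 without L1high replicate 2.

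Propeptide removal was represented by 4 genes, most of them at low levels. BMP1, the C-proteinase, stood at 44.4, 44.6 and 47.2 CPM in L1high and at 46.3, 49.5 and 47.8 in L1low cells, which overlap (log2 fold change 0.08). Its enhancer PCOLCE stood at 3.96, 4.33 and 4.02 CPM against 5.28, 4.68 and 6.32, without overlap. With 531 counts in all 6 libraries together, its log2 fold change of 0.40 had an SE of 0.16 and was not called (adjusted p = 0.161). The N-proteinase ADAMTS3 had the second-largest log2 fold change of the 42 genes, 0.48, from 2.73, 3.80 and 1.95 CPM to 3.41, 4.23 and 4.35, with overlap and without a call (adjusted p = 0.237). ADAMTS14 was near 1 CPM, with a 95% interval of -0.90 to 0.93.

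Cross-linking is done by lysyl oxidases, which oxidise lysine and hydroxylysine so that neighbouring molecules bond. LOXL2 (ENSG00000134013, chromosome 8 from 23296897 to 23425328), a member known for cross-linking collagen IV and for its part in carcinoma invasion, stood at 33.3, 30.8 and 35.6 CPM in L1high cells and at 53.3, 55.1 and 57.4 in L1low cells. The lowest L1low library was well above the highest L1high library. LOXL2 rose by a log2 fold change of 0.73 (SE 0.08, adjusted p = 0.00024), the largest change in either direction among the 42 genes. It was called under all 14 alternative settings, at log2 fold changes of 0.68 to 0.79. Its antisense transcript LOXL2-AS1 shares 178 exon bases with it and also rose (log2 fold change 1.02, adjusted p = 0.014), from 420 counts in all against 4897 on LOXL2. ENTPD4, which shares 120 exon bases on the same strand, had a log2 fold change of 0.03. The strand setting of the counting is not given in the sources used here. Within the 178 shared bases, of 5985 exon bases of LOXL2, reads of LOXL2 and its antisense transcript therefore cannot be told apart.

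LOX stood at 49.1, 56.2 and 46.9 CPM in L1high and at 67.3, 66.8 and 55.9 in L1low cells. L1high replicate 2 lay just above L1low replicate 3, so the groups overlapped, and LOX was not called (log2 fold change 0.32, adjusted p = 0.0705). It passed in 4 of the 14 alternatives, and the adjusted p ran from 0.0142 to 0.264 over them. LOXL3 stood between 18.1 and 20.9 CPM in all 6 libraries, with overlapping groups, a log2 fold change of 0.01 and a 95% interval of -0.21 to 0.22. LOXL1 was at 3.33 to 4.46 CPM (log2 fold change 0.14, adjusted p = 0.673).

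Within the family the composition shifted towards LOXL2. Per kb of exon it held 27.9% ± 2.53 of the lysyl oxidase level in L1high cells and 35.6% ± 2.36 in L1low cells (SD, n = 3). LOXL3 held 21.7% ± 1.04 and 16.7% ± 1.64, while the share of LOX, at 45.4% ± 3.35 and 43.5% ± 3.21, moved by less than the spread between libraries. The log2 ratio of LOXL2 to LOXL3 was 0.75 ± 0.07 in L1high and 1.47 ± 0.10 in L1low libraries (SD, n = 3), a difference of 0.72. The log2 ratio of LOX to LOXL2 fell by 0.41. Both ratios kept the groups apart, with an exact permutation p of 0.1 (two-sided) and 0.26 after Benjamini-Hochberg adjustment over the 13 pairs, and they are not separate observations, since both contain LOXL2.

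**Figure D3:**
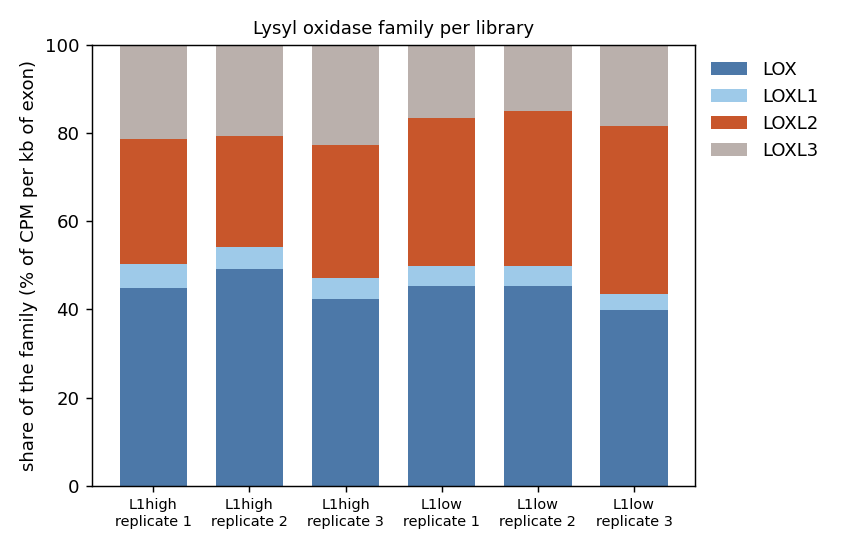
Share of LOX, LOXL1, LOXL2 and LOXL3 in the lysyl oxidase level of each library (y axis, % of CPM per kb of exon). The LOXL2 share is 25.1% to 30.1% in the 3 L1high libraries and 33.6% to 38.2% in the 3 L1low libraries, and the LOXL3 share is lower in each L1low library.

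Seen by step, the summed level differed most in cross-linking, at 107 ± 2.50 CPM in L1high and 142 ± 4.11 in L1low cells (SD, n = 3), a ratio of 1.33. The ratio was 1.16 for lysine hydroxylation and glycosylation (540 ± 12.7 and 627 ± 32.2 CPM), 1.14 for the collagen chaperone and FK506-binding isomerases (574 ± 14.2 and 655 ± 22.8), 1.09 for propeptide removal and 1.08 for proline 4-hydroxylation. In each of these 5 steps all L1low libraries lay above all L1high libraries. The sums follow their most abundant genes and do not show that every gene of a step rose. P4HB and BMP1 have most of the reads of their steps, and their own groups overlapped. LOX, LOXL1, LOXL3, PLOD2, COLGALT1, COLGALT2, FKBP7, FKBP10, ADAMTS3 and ADAMTS14 also overlapped, and FKBP14 was lower in all L1low libraries. The ratios were 0.986 for the proline 3-hydroxylation complex, where PPIB has most of the reads, 0.971 for ER folding and 0.988 for export. Summed over all 42 genes the ratio was 1.02. By median log2 fold change the order was proline 4-hydroxylation (0.25), propeptide removal (0.24), cross-linking (0.23), lysine hydroxylation (0.20), chaperone and isomerases (0.09), proline 3-hydroxylation (0.07), ER folding (-0.03) and export (-0.04). Each step holds 3 to 8 genes, and these medians are descriptions with no test.

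**Figure D4:**
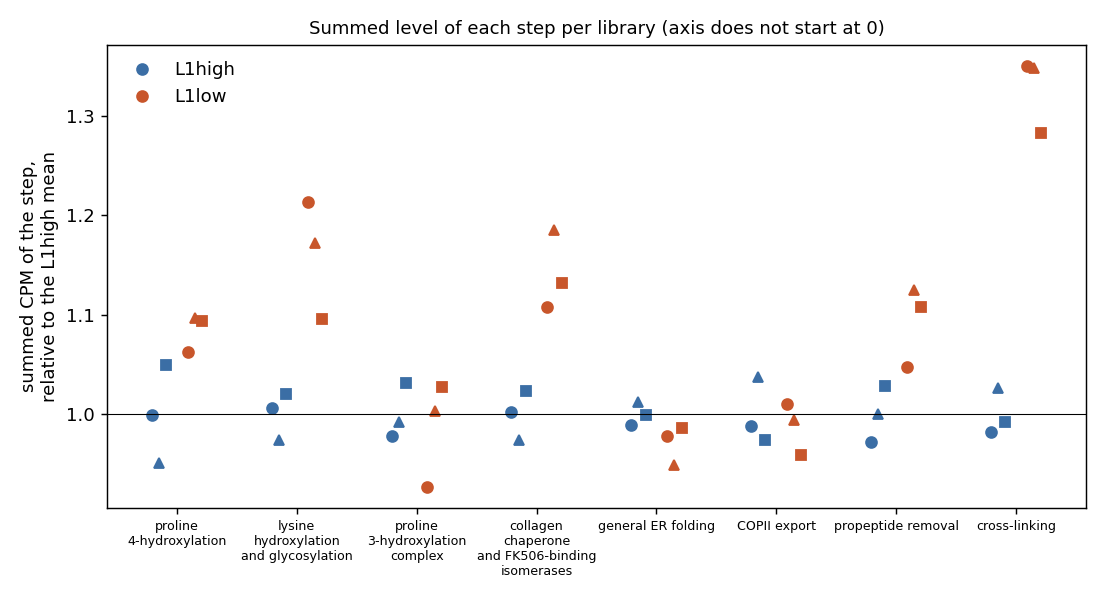
Summed CPM of each step in each library, relative to the L1high mean of that step (y axis, not from 0), for L1high (blue) and L1low (orange), with replicates 1, 2 and 3 as circle, triangle and square. Cross-linking lies at 1.28 to 1.35 in the L1low libraries, and for ER folding, export and the proline 3-hydroxylation complex all libraries lie between 0.927 and 1.04.

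Other genes of the same route were counted in the same way. The table held 33 further collagen and secretory pathway genes (COPII, isomerase, KDEL receptor and related genes). In edgeR 1 of them was called higher (3.03%, against 4.58% of all genes) and 0 lower (against 3.37%), which is near those shares. Their median log2 fold change was -0.08. The called gene was KDELR1, a receptor that returns ER residents from the Golgi, at 195, 182 and 188 CPM in L1high and 221, 233 and 225 in L1low cells (log2 fold change 0.26, adjusted p = 0.0233). Of these 33 genes, 11 had an unadjusted p under 0.05, against 23.3% of all genes, and 8 of the 11 were lower in L1low cells. Without overlap between groups, 9 of the 33 were lower (against 13.7% of all genes) and 3 higher (against 15.2%).

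Other groups of genes were read in the same comparison, and their part in the values above was not tested. Over all genes 4.58% were called higher and 3.37% lower. Of 15 hypoxia response genes 7 were called higher, with a list median of 0.36 on the log2 scale and a summed level of 3683 to 3704 CPM in L1high and 5085 to 5171 in L1low libraries. The largest rises were those of NDRG1, a stress-induced gene (log2 fold change 1.05), and ADM, which encodes adrenomedullin (0.88). Among the collagen genes known as hypoxia targets, P4HA1, PLOD1 and LOXL2 were called and P4HA2, PLOD2, LOX and ERO1A were not. Of 13 unfolded protein response genes, ATF3 was called higher (0.49) and XBP1 lower (-0.25, adjusted p = 0.047 in edgeR). For 13 genes this is near the shares of all genes called. Over the 5 libraries XBP1 lost its call (adjusted p = 0.0606). Of 10 proliferation genes 6 were called lower, CDK1 (-0.62) and PCNA (-0.50) most, and of 10 genes of the stress of sorting 4 were called higher, FOSB (0.43) and IER2 (0.37) most.

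**Figure D5:**
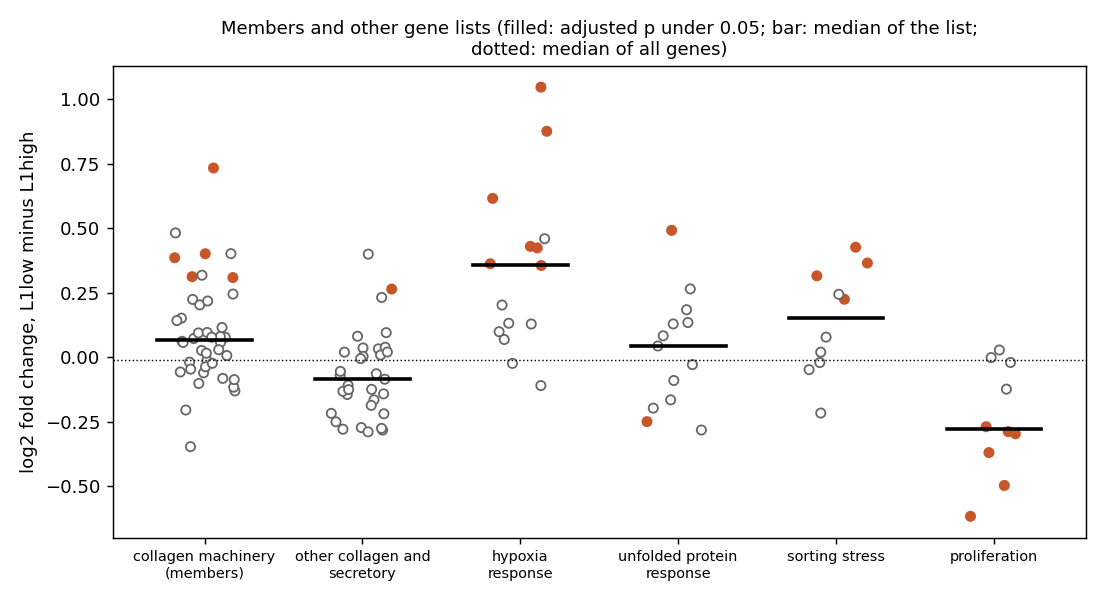
Log2 fold change (y axis, L1low minus L1high) of each gene in the collagen machinery and in 5 other lists, with filled points for called genes, a bar at the list median and a dotted line at the median of all genes. The hypoxia list has its median at 0.36, the collagen machinery at 0.07 and the proliferation list at -0.28.

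Markers of other cell types were read in the same libraries. Of 9 fibroblast or stellate cell markers 3 were in the table, and PDGFRA, PDGFRB, DCN, THY1, FAP and COL1A2 were not. The summed level of the list was 86.7 to 98.5 CPM in L1high and 140 to 160 in L1low libraries, most of it from LUM (78.1 to 89.8 and 129 to 150 CPM, log2 fold change 0.78, adjusted p = 0.000135). ACTA2 stayed under 10 CPM, at 6.88 to 9.75, and COL3A1 at 1.02 to 2.20. Of 4 leukocyte markers CD68 was in the table (8.42 to 11.3 CPM), and of 3 endothelial markers PECAM1 (11.3 to 14.7 CPM). The epithelial markers moved both ways, with KRT19 called higher (log2 fold change 0.63) and EPCAM lower (-0.30). In such bulk libraries, fewer cells of a type and less RNA per cell cannot be told apart.

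Several members share reads or positions with other genes. SNX22 lies opposite PPIB, shares 1163 exon bases with it, and held 46080 counts against 69039 on PPIB (log2 fold change -0.12). ATP6V1C2 lies opposite PDIA6, with 21121 counts against 68729. ENSG00000262831 lies opposite P4HB, with 25285 against 99633. ELL3, opposite PDIA3, was called lower (log2 fold change -0.42, adjusted p = 0.0243) while PDIA3 was not. None of the overlapping genes of P4HA1, or of the pseudogenes SERPINH1P1, FKBP9P1, PDIA3P1, HSPA5P1 and SEC13P1, was called, and no gene sharing exon bases with PLOD1, P3H2 or SERPINH1 was found in the annotation.

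The 4 calls beside LOXL2, at adjusted p 0.00977 to 0.029 in edgeR over all libraries, depended on single libraries. Without L1high replicate 1 their adjusted p-values in edgeR were 0.0854 for P4HA1, 0.068 for PLOD1, 0.162 for P3H2 and 0.0659 for SERPINH1, and without L1low replicate 2 they were 0.0779, 0.0966, 0.0865 and 0.0836. P3H2 was also not called without L1low replicate 1 (0.0655) or replicate 3 (0.071). The log2 fold changes kept their sign under every alternative, at 0.35 to 0.49 for P4HA1, 0.26 to 0.35 for PLOD1, 0.32 to 0.43 for P3H2 and 0.28 to 0.34 for SERPINH1. Over all 14 alternatives the adjusted p ran from 0.00102 to 0.0854 for P4HA1, from 0.00343 to 0.0966 for PLOD1, from 0.0118 to 0.162 for P3H2 and from 0.0015 to 0.0836 for SERPINH1.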

How the data were processed

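RNA from FACS-sorted L1high and L1low L3.6pl cells was sequenced in 3 libraries each. Libraries were stranded. The authors' reads were aligned with BWA, which is not splice-aware, to GRCh38. The deposited values are counts from featureCounts on genes of Ensembl release 94, without normalization. The submitters' processing notes also name DESeq2. Versions and the strand and multi-mapping options are not given in the sources used here. Each of the 19469 genes in the table exceeded 1 CPM in at least 2 libraries, so genes below that were not analysed here.

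From these counts, L1low was compared with L1high over all 6 libraries in R 4.3.3 with edgeR 4.0.16 (TMM, filterByExpr, quasi-likelihood test, Benjamini-Hochberg adjustment over all genes, calls at an adjusted p under 0.05). No source gives a reason to leave a library out. The SE is the log2 fold change divided by the square root of F. Ratios of relatives used 0.5 CPM added to each value and an exact permutation test over the libraries. Symbols, coordinates and exon lengths came from GENCODE release 44, which matched 19344 genes. Exon length is the union of the exons of all transcripts of a gene. Promoter sequence came from RefSeq. The members, steps and other lists were chosen with earlier results of these data known, and the pairs of relatives and the motifs after the data were seen. All members are named. From each other list, called genes are named up to 2 per direction, by size.

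The fit was tested on simulated data for 19469 genes: of 200 genes given a log2 change of 1 it recovered 164 (82%), and 13 of its 177 calls were false. A change of 1 is larger than that of any member (at most 0.73). The recovery of changes of their size was not tested. The common biological coefficient of variation was 0.0926, and depth limits precision for members near 1 CPM. The alternatives were 3 other scalings, DESeq2 1.42.0, no filter or at least 10 counts in every library, the replicate number as a block and each library left out.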

Additional observations from a re-analysis of the deposited data

How the results depend on the processing

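Over the members, 588 log2 fold changes were recomputed under alternatives, of which 549 kept their direction and their side of the threshold. Leaving out 1 library at a time gave 1 to 6 members called higher, 0 called lower and 627 to 1473 genes called over all genes (674 without L1high replicate 1, 627 without L1low replicate 2), against 5, 0 and 1548 with all libraries, and only these omissions, with fewer samples, took the members called to 1. Whether the replicate numbers pair the libraries was not settled. Deviations of same-numbered libraries from their group means correlated at 0.117, 0.0967 and 0.292, each the highest value for its L1low library. Different numbers gave -0.198 to 0.106. The 0.106, of L1high replicate 2 with L1low replicate 1, exceeded that of L1high replicate 2 with its own number. With the replicate block, 2363 genes and 7 members were called. Median log2 fold changes under the omissions were 0.04 to 0.11 for all members, 0.21 to 0.29 for proline 4-hydroxylation, 0.11 to 0.22 for lysine hydroxylation, 0.05 to 0.09 for proline 3-hydroxylation, 0.05 to 0.14 for chaperone and isomerases, -0.053 to -0.014 for ER folding, -0.078 to 0.027 for export, 0.22 to 0.35 for propeptide removal (0.35 without L1high replicate 3) and 0.17 to 0.34 for cross-linking. With library totals only, the export median was -0.048. With pseudogene counts added to their parent, an alternative chosen after seeing the data, the ER folding median was -0.053. The sign turned in 24 values of 10 members that were never called, whose log2 fold change over all libraries was at most 0.10 in size, and the cause was not tested. With library totals only, LOXL3 stood at -0.0048, and with DESeq2, ADAMTS14 stood at -0.0087. The others came from leaving out a library, which gave -0.031 to 0.062 for LOXL3, -0.42 to 0.48 for ADAMTS14, -0.14 to 0.13 for FKBP7, -0.058 to 0.0077 for PDIA3, -0.070 to 0.056 for P3H4, -0.39 to 0.12 for COLGALT2, -0.12 to 0.027 for SEC24D, -0.013 to 0.064 for HSPA5, -0.016 to 0.21 for ERO1A and -0.082 to 0.042 for SEC31A. Depth limits the members under 5 CPM (COLGALT2, FKBP7, ADAMTS3, ADAMTS14, LOXL1), and for ADAMTS2 and LOXL4 nothing can be said.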
